A study of Mus musculus with 9 samples.

Results

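TRiC, also called CCT, is the chaperonin of the eukaryotic cytosol, and the 8 genes that encode its subunits in mouse somatic cells (Tcp1, Cct2, Cct3, Cct4, Cct5, Cct6a, Cct7 and Cct8) were followed in RNA from extracellular vesicles (EVs). They were found by gene name among the noncontrol probes of the array. Each gene had exactly 1 probe, so 8 of 55681 noncontrol probes were followed. The EVs, small membrane particles shed by cells with RNA inside, came from mouse embryonic fibroblasts (MEFs). Total RNA was labelled with cyanine 3 and hybridised to 1-colour Agilent arrays, with 5 arrays for PBS-treated MEFs and 4 for control MEFs. PBS is phosphate-buffered saline. Whether cells of the PBS-treated group were pulsed as in the electroporation of the study, and how control cells were handled, is not stated in the labels or the methods, so both groups keep their labelled names. No label ties a replicate to its own culture, and the p-values below measure only the spread between these arrays, which may be technical.

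The subunits of TRiC assemble into a pair of rings stacked back to back, and every ring holds all of them at fixed places. The closed chamber folds newly made proteins in cycles of ATP binding and hydrolysis. Actin and the tubulins cannot reach their native state without it, and other well known clients are G protein β subunits, cyclin E, the APC/C activators Cdc20 and Fzr1, and the tumor suppressor VHL. Prefoldin hands unfolded actin and tubulin to the chamber, phosducin-like proteins help it to fold particular clients, and several subunit genes are known targets of the heat shock factor Hsf1 in mammalian cells. The subunits are thought to act as 1 complex, so transcripts that change by unequal amounts are of interest in themselves.

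All values of a subunit rest on a single stretch of 60 bases. The probes of the 3 subunits with the largest differences and of the 2 subunits that behaved differently on the slides are shown, since the results turn on them. Positions are on mm9, the build named in the file headers. The Cct6a probe (plus strand, chr5:130300316-130300375) and the Tcp1 probe (plus strand, chr17:13116096-13116155) each lie in an unbroken stretch of the genome, as does the Cct4 probe (plus strand, chr11:22901396-22901455). The 60 bases of the Cct8 probe span 149 bases of the genome (minus strand, chr16:87485981-87486129) and those of the Cct7 probe span 327 bases (plus strand, chr6:85417773-85418099), so these 2 probes are interrupted by genomic sequence that the transcript lacks. Each of the 5 probes has at least 1 reading frame with no stop codon.
Cct6a: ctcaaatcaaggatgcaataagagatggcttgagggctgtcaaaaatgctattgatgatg
Cct8: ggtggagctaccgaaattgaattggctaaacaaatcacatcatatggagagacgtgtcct
Cct7: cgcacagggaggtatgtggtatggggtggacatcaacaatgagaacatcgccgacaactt
Tcp1: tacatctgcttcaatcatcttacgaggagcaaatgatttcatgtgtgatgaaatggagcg
Cct4: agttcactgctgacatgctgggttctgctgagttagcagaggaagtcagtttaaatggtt

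The probes of Cct2 (minus strand, chr10:116490137-116490196), Cct3 (plus strand, chr3:88124479-88124538) and Cct5 (minus strand, chr15:31520643-31520702) also lie in unbroken stretches. Exon annotation of mm9 was not used here. Levels of different probes are not set against each other below, because probes differ in how well they bind.

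Values are log2 of the background-corrected signal minus the 75th percentile, on the same array, of the 8422 probes that were well above background on all 9 arrays. "Well above background" is the scanner software's own mark for a spot brighter than its surroundings. The arrays lay on 2 slides. PBS-treated arrays 1 to 3 shared slide 1 with control arrays 1 and 2, and PBS-treated arrays 4 and 5 shared slide 2 with control arrays 3 and 4. Between 16492 and 19233 probes per array were well above background in the PBS-treated group, 15554 and 15252 on control arrays 1 and 2, and 12673 and 12584 on control arrays 3 and 4. No spot was saturated. Precision is limited by how few arrays each group has.

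All 8 subunits were detected in the EV RNA. Their probes were well above background on all 9 arrays, except the Cct6a probe, which was not on control array 4. Differences between groups are PBS-treated minus control on the log2 scale with their standard error (SE), from 1 limma fit over 17765 probes with Benjamini-Hochberg adjustment over all of them. Cct6a, Cct8, Cct7 and Cct2 rose in the PBS-treated group, and Cct3, Cct5, Tcp1 and Cct4 did not pass the threshold of adjusted p under 0.05. No subunit was called lower. Over all probes, 52.4% passed the test, 31.5% as higher and 21% as lower, so 4 of 8 called subunits lie close to the share of all probes, and all 4 were called higher. The median difference of the 8 subunits was 0.47, against -0.02 over all 14319 genes tested. Without both control arrays of slide 2 it was 0.18, close to the median of all probes in that fit, 0.14. The mean of the 8 subunits on each array ran between -0.34 and -0.09 in the PBS-treated group and between -1.08 and -0.39 in the control group. In pooled EV RNA, a transcript carried by fewer vesicles and a transcript with fewer copies in each vesicle cannot be told apart.

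**Figure D1:**
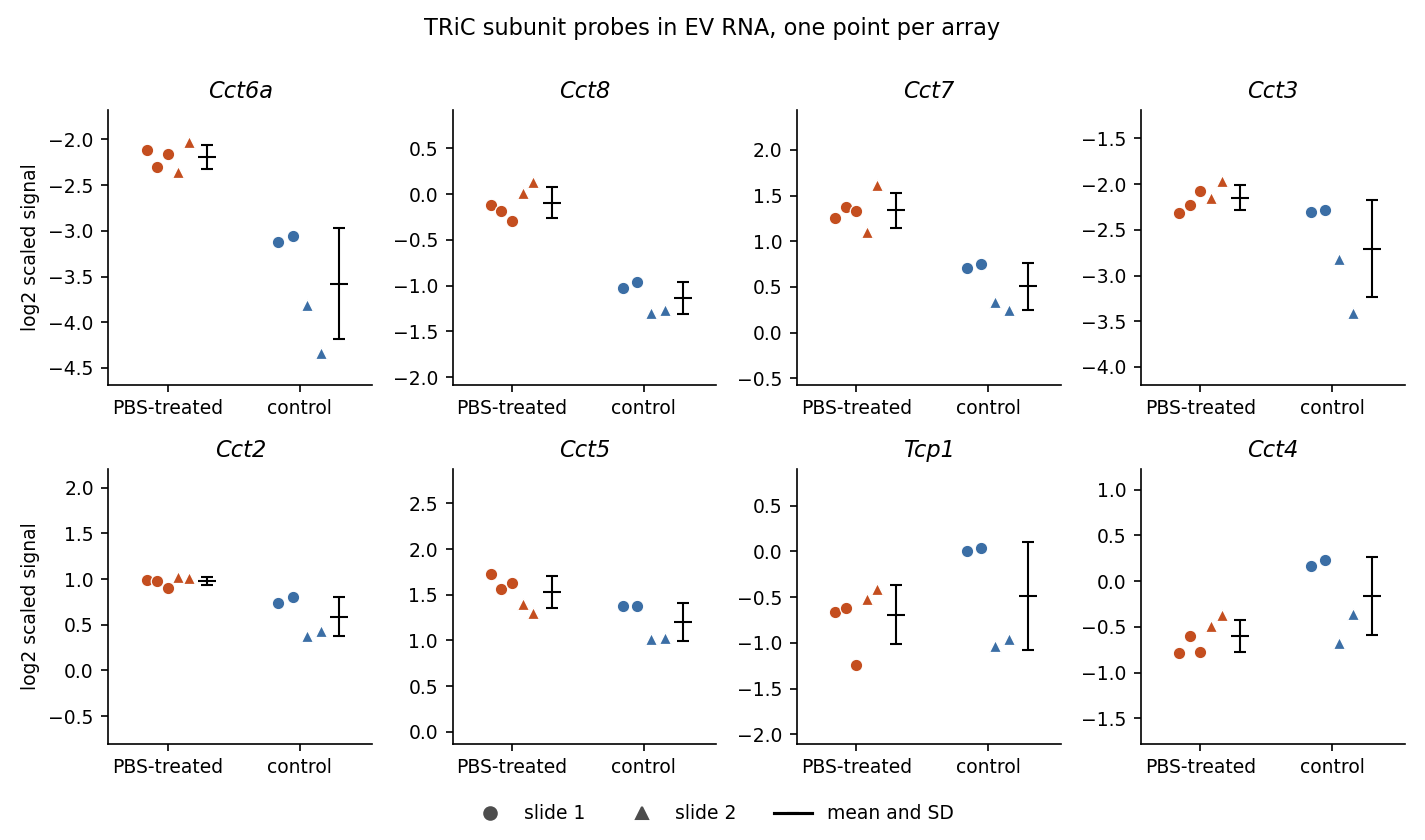
Log2 scaled signal of each subunit's probe on the 9 arrays, with PBS-treated arrays on the left and control arrays on the right of each panel; circles are slide 1, triangles slide 2, and bars show the mean with its SD. Every panel spans the same number of log2 units; the groups do not overlap for Cct6a, Cct8, Cct7 and Cct2, and control triangles lie below control circles in all 8 panels.

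Cct6a, the ζ subunit, had the largest difference of the 8 in this fit. Its values in the PBS-treated group were -2.11, -2.30, -2.16, -2.36 and -2.03, against -3.12, -3.05, -3.81 and -4.33 in the control group. The groups did not overlap, and the fitted difference was 1.39 ± 0.27 (SE; 2.61-fold, adjusted p = 0.00237). Its processed signal was 214 to 443 on PBS-treated arrays and 22 to 123 on control arrays, while the lowest signal marked well above background on any array lay between 12 and 22. The size depended on background correction. It was 0.48 (adjusted p = 0.0186) with normexp, a model-based correction of the mean signal, where Cct8, Cct7, Cct2 and Cct5 were larger, and 0.89 (adjusted p = 0.0059) in the authors' value table, where Cct8 and Cct7 were larger.

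Cct8, the θ subunit, read -0.12, -0.18, -0.30, 0.02 and 0.13 in the PBS-treated group and -1.02, -0.96, -1.30 and -1.27 in the control group. Every PBS-treated array lay above every control array, and the gap between the groups was wider than the range within either. The difference was 1.05 ± 0.14 (2.06-fold, adjusted p = 0.000311), the smallest adjusted p of the 8.

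Cct7, the η subunit, read 1.26, 1.38, 1.33, 1.10 and 1.62 in the PBS-treated group and 0.71, 0.75, 0.33 and 0.25 in the control group. The groups again did not overlap, and the difference was 0.83 ± 0.16 (1.78-fold, adjusted p = 0.00264). Cct6a, Cct7 and Cct8 rose on each slide taken alone. On slide 1 the difference was 0.89 ± 0.12 for Cct6a (adjusted p = 0.00273), 0.59 ± 0.10 for Cct7 (adjusted p = 0.00725) and 0.79 ± 0.11 for Cct8 (adjusted p = 0.00371). On slide 2 it was 1.88 ± 0.25 for Cct6a (adjusted p = 0.0069), 1.07 ± 0.22 for Cct7 (adjusted p = 0.0204) and 1.36 ± 0.13 for Cct8 (adjusted p = 0.00338). These values were above those of slide 1, but the test of the difference between the slides did not pass for any of the 3 (adjusted p = 0.0689 for Cct6a, 0.246 for Cct7 and 0.0744 for Cct8).

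Cct2, the β subunit, read 0.99, 0.98, 0.90, 1.02 and 1.01 in the PBS-treated group and 0.74, 0.81, 0.38 and 0.43 in the control group. The PBS-treated arrays agreed closely (SD 0.05, n = 5), the control arrays did not (SD 0.21, n = 4), and the groups did not overlap. The difference was 0.39 ± 0.13 (1.31-fold, adjusted p = 0.0295). This call was the least secure of the 4: the difference was 0.18 ± 0.10 on slide 1 alone (adjusted p = 0.181) and 0.61 ± 0.12 on slide 2 alone (adjusted p = 0.0176), and leaving out any of the PBS-treated arrays 1, 2, 4 and 5 or of the control arrays 3 and 4 ended the call (adjusted p from 0.0586 to 0.073). In all, 4 of 8 subunits had groups that did not overlap, against 47% of all probes tested.

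Cct3, the γ subunit, gave values of -2.32, -2.23, -2.07, -2.15 and -1.97 in the PBS-treated group, against -2.31, -2.28, -2.81 and -3.41 in the control group. Control arrays 1 and 2 lay inside the range of the PBS-treated arrays and control arrays 3 and 4 below it. The difference of 0.56 ± 0.24 did not pass (adjusted p = 0.0819). It was 0.09 ± 0.12 on slide 1 and 1.05 ± 0.26 on slide 2 (adjusted p = 0.565 and 0.0303), and leaving out 1 control array moved it both ways: without array 2 it was 0.70 and passed (adjusted p = 0.0446), and without array 4 it was 0.32 (adjusted p = 0.159).

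Cct5, the ε subunit, read 1.73, 1.56, 1.63, 1.40 and 1.30 in the PBS-treated group and 1.37, 1.38, 1.01 and 1.03 in the control group. Within each slide all PBS-treated arrays were the higher ones, but PBS-treated array 5 fell below control arrays 1 and 2 of the other slide. The difference was 0.33 ± 0.15 (adjusted p = 0.0933), and the 2 slides gave nearly the same value, 0.26 ± 0.11 on slide 1 and 0.33 ± 0.12 on slide 2 (adjusted p = 0.0917 and 0.086). With slide as a block it was 0.29 and passed (adjusted p = 0.0226).

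Tcp1, the α subunit for which the complex is named, and Cct4, the δ subunit, were the only ones with a fitted difference below 0. Tcp1 read -0.66, -0.61, -1.25, -0.52 and -0.41 in the PBS-treated group and 0.01, 0.04, -1.03 and -0.96 in the control group, a difference of -0.20 ± 0.29 (adjusted p = 0.57) that ran between -0.39 without control array 3 and -0.03 without control array 2. Cct4 read -0.78, -0.60, -0.77, -0.49 and -0.37 in the PBS-treated group and 0.16, 0.23, -0.67 and -0.36 in the control group, a difference of -0.44 ± 0.21 (adjusted p = 0.112). Without control array 3 it was -0.61, and Cct4 was called lower (adjusted p = 0.0255). In both genes the control arrays split by slide, with arrays 1 and 2 above every PBS-treated array. For Tcp1 arrays 3 and 4 lay inside the range of the PBS-treated arrays, whereas for Cct4 array 3 lay inside it and array 4 at its upper edge.

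On slide 1 alone Tcp1 and Cct4 were lower in the PBS-treated group, at -0.87 ± 0.23 and -0.91 ± 0.12 (adjusted p = 0.0258 and 0.00267). On slide 2 alone Tcp1 was higher, at 0.53 ± 0.13 (adjusted p = 0.0284), and Cct4 did not pass, at 0.09 ± 0.17 (adjusted p = 0.673). The test of the difference between the slides passed for these 2 subunits, at 1.40 ± 0.30 for Tcp1 and 1.0 ± 0.20 for Cct4 (slide 2 minus slide 1, adjusted p = 0.0318 and 0.0278). It did not pass for the other 6, among which it ran between 0.07 for Cct5 and 0.99 for Cct6a. Of all probes, 9.64% passed that test, 16.2% had opposite signs on the 2 slides, and 0.968% were called on both slides in opposite directions, as Tcp1 was.

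By slide, 3 subunits were called higher and 2 lower on slide 1, where 30.8% of all probes were called higher and 31.1% lower. On slide 2, 6 were called higher and 0 lower, where 33.2% of all probes were called higher and 5215 of 17765 lower. Both control arrays of slide 2 read below both control arrays of slide 1 in all 8 subunits, which held for 46.3% of all probes. These 2 arrays were also those with the fewest probes above background, and the part of this in the subunit values was not tested. Without both of them Tcp1 and Cct4 were called lower, at -0.72 and -0.80 (adjusted p = 0.0416 and 0.00461), while Cct6a, Cct7 and Cct8 were still called higher, 2 of 8 against 20.8% of all probes called lower and 3 of 8 against 29.3% called higher.

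**Figure D2:**
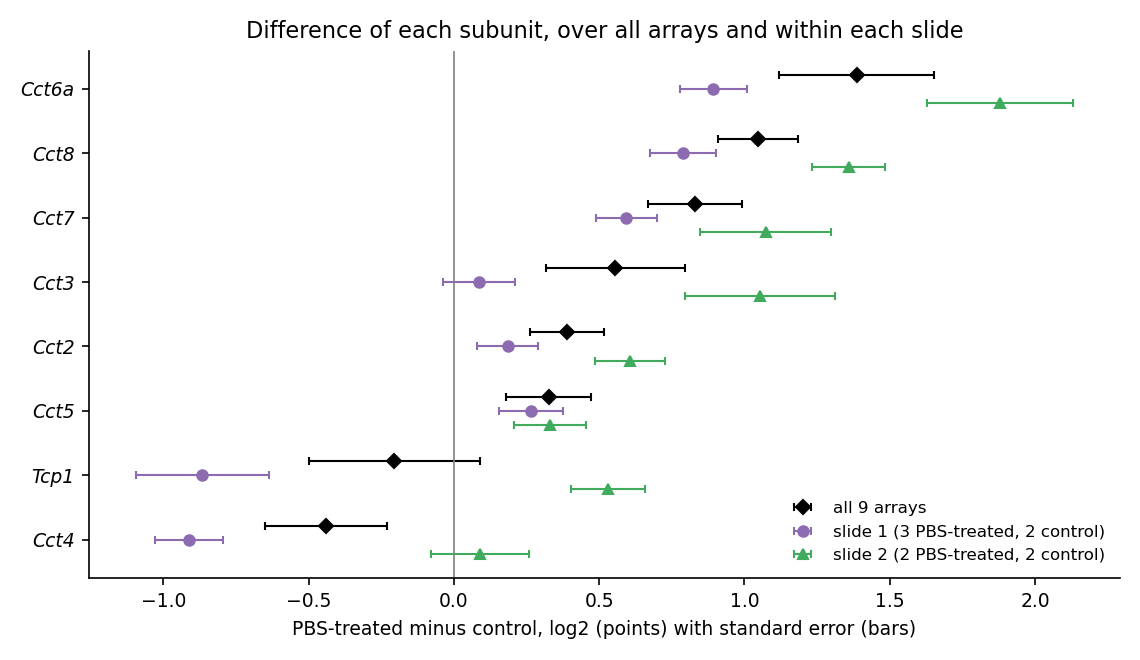
Fitted difference, PBS-treated minus control on the log2 scale, of each subunit over all 9 arrays (diamonds), on slide 1 (circles) and on slide 2 (triangles), with bars for 1 SE. Cct6a, Cct8 and Cct7 lie above 0 in all 3 fits, whereas Tcp1 lies at -0.87 on slide 1 and 0.53 on slide 2, and Cct4 at -0.91 and 0.09.

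A comparison within each array, in which each subunit is taken relative to the mean of the 8 on the same array, is not changed by scaling each array by 1 constant. It carries no test, since the 8 values share that mean. Relative to the mean, Cct4 ran between -0.53 and -0.24 in the PBS-treated group and between 0.31 and 0.72 in the control group, and Tcp1 between -0.91 and -0.27 in the PBS-treated group and between -0.04 and 0.44 in the control group. Both were thus lower relative to the other subunits on every PBS-treated array than on any control array, with differences of the means of -0.93 for Cct4 and -0.69 for Tcp1. The sign was the same on each slide. Cct4 was at -1.04 on slide 1 and -0.78 on slide 2, and Tcp1 at -0.99 on slide 1 and -0.33 on slide 2.

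In the other direction, Cct6a ran between -2.11 and -1.83 relative to the mean in the PBS-treated group and between -3.25 and -2.67 in the control group. Cct8 ran between 0.04 and 0.26 in the PBS-treated group and between -0.59 and -0.19 in the control group, and Cct7 between 1.35 and 1.71 in the PBS-treated group and between 1.14 and 1.33 in the control group. Cct2, Cct3 and Cct5 overlapped. It still depends on background correction and on quantile normalization. With normexp and in the authors' value table Tcp1, Cct4, Cct7 and Cct8 again did not overlap, whereas Cct6a overlapped with normexp (difference of the means 0.15, against 0.90 in the values used here) and did not in the value table (0.39). In all, 5 of 8 subunits did not overlap on this measure, against 44.2% of all probes taken relative to the same mean. The step from Cct6a to Cct4, the ends of the order, was 1.83 ± 0.20 (SE) and the groups did not overlap, whereas for every pair of neighbours in the order Cct6a, Cct8, Cct7, Cct3, Cct2, Cct5, Tcp1, Cct4 they did overlap, with steps from 0.06 to 0.53.

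**Figure D3:**
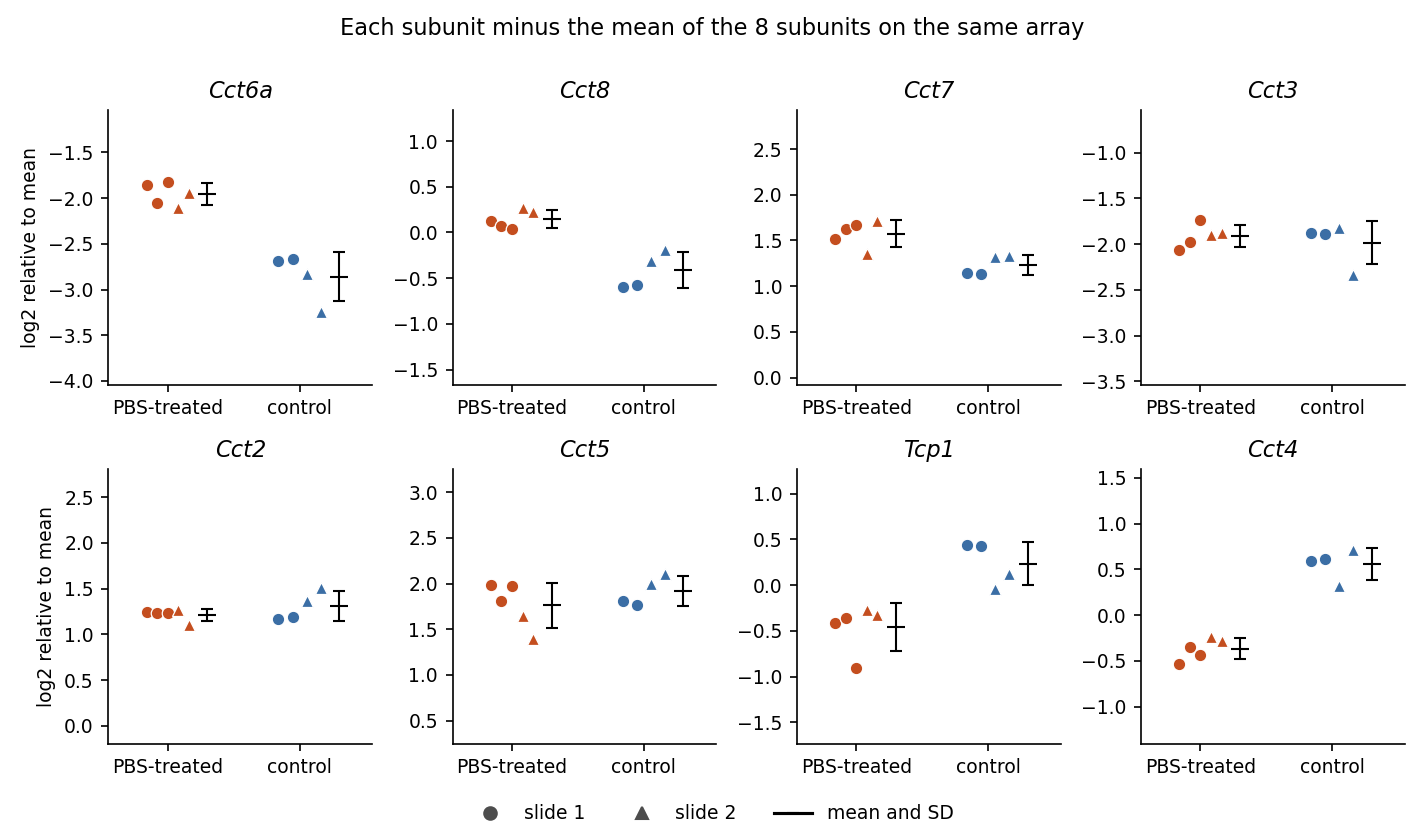
Each subunit minus the mean of the 8 subunits on the same array (log2), PBS-treated arrays left and control arrays right, with circles for slide 1, triangles for slide 2 and bars for the mean with its SD. Tcp1 and Cct4 lie lower, and Cct6a, Cct8 and Cct7 higher, on all PBS-treated arrays than on all control arrays.

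Scaling each array by another constant moved all 8 differences by the same amount, whereas quantile normalization and other background corrections moved them unequally. With normexp Cct3 was at 0.06 and Cct2 at 0.57, below and above their values of 0.56 and 0.39 in the fit described so far. Against the 8 spike-in probes, 8 subunits were called higher, from 0.81 for Cct4 to 2.64 for Cct6a, but 62.2% of all probes were called higher as well, and the median of all genes stood at 1.23. Against the 75th percentile of all probes 3 were called higher (25.2% of all probes) and that median stood at 0.39. Tcp1 was at 0.20 (adjusted p = 0.769) and Cct4 at -0.03 there. With normexp background correction 4 were called higher (12.5% of all probes) and the median stood at -0.50, the authors' value table also gave 4 (26.1% of all probes), and with quantile normalization the median stood at 0.23. Scalings that differ by a constant per array give the same values relative to the median of all genes, so the 7 scalings are not separate checks. Taken relative to that median, over 7 scalings and each slide alone, Cct8 lay between 0.86 and 1.52, Cct6a between 0.79 and 1.79, and Cct7 between 0.66 and 1.35. Cct2, Cct3 and Cct5 also lay above it in each of these, at 0.16 at the lowest. Cct4 lay between -0.84 and 0.14 and Tcp1 between -0.79 and 0.44, so neither had a direction that held. The fit without both control arrays of slide 2 is not among these. There the differences of Cct2, Cct3 and Cct5 were 0.207, 0.145 and 0.147, and the median of all probes was 0.139. With array weights 5 subunits were called higher (37.3% of all probes) and 2, Tcp1 and Cct4, lower (32.6%), and with slide as a block 5 were called higher (35.4%).

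**Figure D4:**
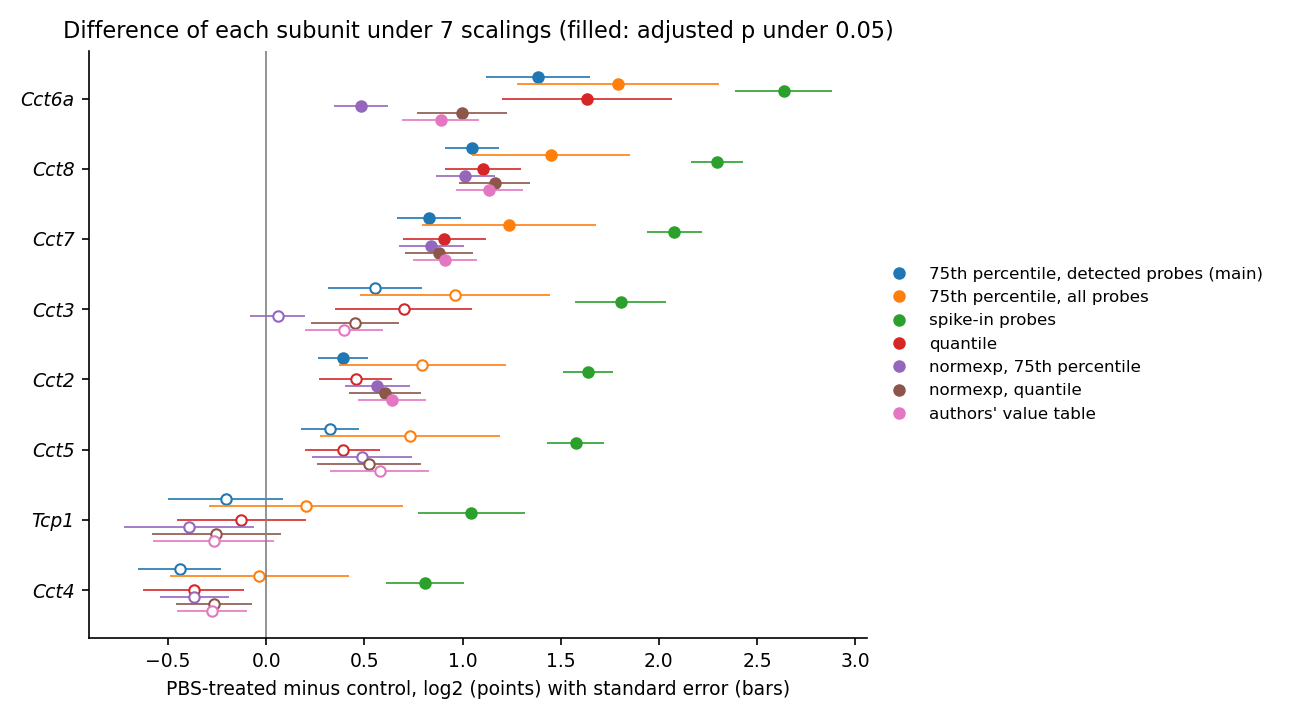
Difference of each subunit, PBS-treated minus control on the log2 scale with bars for 1 SE, under 7 ways to scale or background-correct the arrays; filled points have adjusted p under 0.05. Spike-in scaling moves all 8 to the right, from 0.81 to 2.64, while Cct6a, Cct8 and Cct7 stay filled under each scaling.

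The order of the differences was set beside the known layout of the ring, a grouping made after the values were seen and given as a description. In yeast and bovine TRiC, Cct3, Cct6, Cct7 and Cct8 bind ATP with lower affinity than Tcp1, Cct2, Cct4 and Cct5, and the 4 subunits of each kind sit side by side. The low-affinity subunits had the 4 largest differences, 0.56 to 1.39, and the high-affinity subunits the 4 smallest, -0.44 to 0.39. The 2 kinds stood apart in 21 of the 28 fits that measured all 8 subunits, which share the same arrays. They did not in the other 7, which were both normexp fits, the value table, array weights, slide 1 alone, and the fits without control array 4 or without control arrays 3 and 4. Cct3 was at 0.09 on slide 1 alone and at 0.06 with normexp. The count of 21 includes fits that could not change the order. Another test, probe rule or scaling constant, or no filter, leaves it as it was. Where the 2 kinds meet, the step from Cct3 to Cct2 was 0.17 ± 0.18 (SE) and the groups overlapped.

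Genes that work with TRiC were counted from lists, with the brightest probe of each gene. Over all genes tested, 31.5% were called higher and 20.7% lower. Among the 4 phosducin-like and other TRiC cofactors tested, 3 were called higher, 0 lower, with a median of 1.13. Pdcl, which assists the folding of G protein β subunits, was at 1.37 ± 0.23 (adjusted p = 0.00109), Txndc9 at 0.89 ± 0.26 and Pdcl3 at 1.74 ± 0.55, although Pdcl3 was well above background on only 1 control array and Pdcl on 2. Pdcl2 was not tested. With normexp and limma 0 of the 4 were called higher, and 0 at an unadjusted p under 0.05 (median 0.07, with Pdcl at -0.26 and Pdcl3 at 0.10), and 2 were in the value table (median 0.58). Prefoldin, which delivers actin and tubulin, moved both ways: of its 6 subunits 2 were called higher and 1 lower, with a median of 0.19. With normexp limma called 0 of the 6 in either direction, with 0 higher and 1 lower at an unadjusted p under 0.05, and the median was -0.34. In the fit described here Pfdn5 fell, at -0.57 ± 0.12 (adjusted p = 0.00339) and Pfdn6 rose, at 0.46 ± 0.16 (adjusted p = 0.0413). Vbp1 did not pass with its brightest probe, at 1.03 ± 0.41 (adjusted p = 0.0655). Its other tested probe was called higher, at 1.06 (adjusted p = 0.00815), and is not in the counts. Pfdn4 was well above background on 4 PBS-treated arrays and no control array. Pfdn4 is among the 2 called higher and entered the test through PBS-treated arrays only. With its control values set to a floor, it was 1.43-fold higher in the PBS-treated group in this fit. The floor was the lowest signal well above background on each control array, or the probe's own where that is higher. It is not a strict limit. On control array 4 the Cct6a probe was not marked at a signal of 22, above the lowest marked signal there, 20. With normexp Pfdn4 was at -0.32.

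The R2TP complex, a cofactor of HSP90 that assembles large protein complexes, works with a module of prefoldin-like subunits. Of 8 genes of R2TP and its partners 5 were called higher and 1 lower, with a median of 0.73, and with normexp 3 were called higher and 1 lower (median 0.38). In R2TP itself Ruvbl1 and Rpap3 were called higher, at 1.01 and 0.56, and Ruvbl2 and Pih1d1 did not pass, at 0.68 and -0.20. The genes named next are partners. Uxt was at 0.97 ± 0.11 (adjusted p = 0.000136). Uri1, among the 5 called higher, was well above background on 5 PBS-treated arrays and no control array. It entered the test through PBS-treated arrays only. With its control values set to the same floor, it was 2.68-fold higher in the values of the main fit, which is not a strict bound. On the log2 scale Uri1 was at 0.23 with normexp and at 0.86 in the value table. The 1 lower gene, Wdr92, read between 3.04 and 3.37 in the PBS-treated group and between 4.90 and 5.73 in the control group, at -2.13 ± 0.21 (adjusted p = 6.49e-05). Of the other chaperonins, 3 of 4 tested were called higher and 0 lower, with a median of 0.70: the mitochondrial chaperonin Hspd1 at 0.67 ± 0.17 (adjusted p = 0.00936), and Mkks and Bbs12, chaperonin-like proteins of the Bardet-Biedl syndrome, at 1.08 ± 0.21 and 0.73 ± 0.21. Bbs12 was well above background on 1 control array and Mkks on 3, and Bbs12 turned to -0.51 with normexp. With normexp limma called 0 of the 4 higher, with 1 at an unadjusted p under 0.05 (median 0.21), and 1 was called in the value table. Cct6b, the testis counterpart of Cct6a, and Bbs10 were above background on no array.

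Among the obligate clients, 9 of 12 actin and tubulin genes were called higher and 1 lower, with a median of 0.92. Tubb6, a β-tubulin, read between 0.77 and 1.25 in the PBS-treated group and between -1.53 and -0.86 in the control group, at 2.22 ± 0.18 (adjusted p = 2.81e-05). Tubg1, the γ-tubulin that nucleates microtubules, was at 1.33 ± 0.11 and the α-tubulin Tuba1c at 1.37 ± 0.13. The 1 lower gene, the β-tubulin Tubb5, named after its value was seen, was at -0.42 ± 0.12 (adjusted p = 0.0201). The actin gene Actg1 did not pass with its brightest probe, at 0.49 ± 0.21 (adjusted p = 0.0794). Most of its 4 other tested probes were called higher, and they are not in the counts. Of the 5 tested cofactors that assemble the tubulin dimer after TRiC, 3 were called higher and 0 lower, with a median of 0.50: Tbca at 0.69 ± 0.19, Tbcc at 1.11 ± 0.15 and Tbcd at 0.50 ± 0.13. Only 1 of the 5 was called higher with normexp (median 0.15), against the percentile of all probes or in the value table. Tubulin isotypes are close copies of one another, and probes may read more than 1 of them.

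Of 14 other clients 5 were called higher and 3 lower, with a median of 0.45, shares close to the 31.5% and 20.7% of all genes. With normexp 4 were called higher and 4 lower, and the median was -0.06. Ccne1, which encodes cyclin E, read between -1.61 and -1.44 in the PBS-treated group and between -5.46 and -4.07 in the control group, where 2 arrays were well above background, at 3.03 ± 0.27 (adjusted p = 3.54e-05). With normexp Ccne1 was at 1.44. Ppp2r2a, a regulatory subunit of the phosphatase PP2A, was at 1.87 ± 0.20, and Gnb4, a G protein β subunit, fell, at -1.29 ± 0.11 (adjusted p = 2.58e-05). The APC/C activators Cdc20 and Fzr1, named after their values were seen, were also called lower, at -0.41 ± 0.12 and -1.13 ± 0.17. Of 10 genes of the HSP70 and HSP90 system, 6 were called higher and 1 lower, with a median of 0.66. The J-domain proteins Dnaja1 and Dnajb1 were at 1.46 ± 0.13 and 1.39 ± 0.14, and Stip1, which links HSP70 to HSP90, at 1.49 ± 0.19 (adjusted p = 0.000295). Hsp90ab1, the 1 lower gene, named after its value was seen, was at -0.74 ± 0.17. Hspa8 and Hspa4 did not pass with their brightest probes, at -0.40 ± 0.24 and 0.19 ± 0.14 (adjusted p = 0.191 and 0.288). Another tested probe of Hspa8 was called lower and another of Hspa4 higher, and neither is in the counts. Taken relative to the median of all genes, the medians of these 8 lists lay above 0 in the 7 scalings and on each slide alone, prefoldin being lowest, at 0.0041 with quantile normalization. The 7 scalings are not separate checks. Both percentile scalings of the background-corrected signal and the spike-in scaling give the same relative values, since a constant per array cancels. The lists also hold Pfdn4 and Uri1, which entered the test through PBS-treated arrays only.

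**Figure D5:**
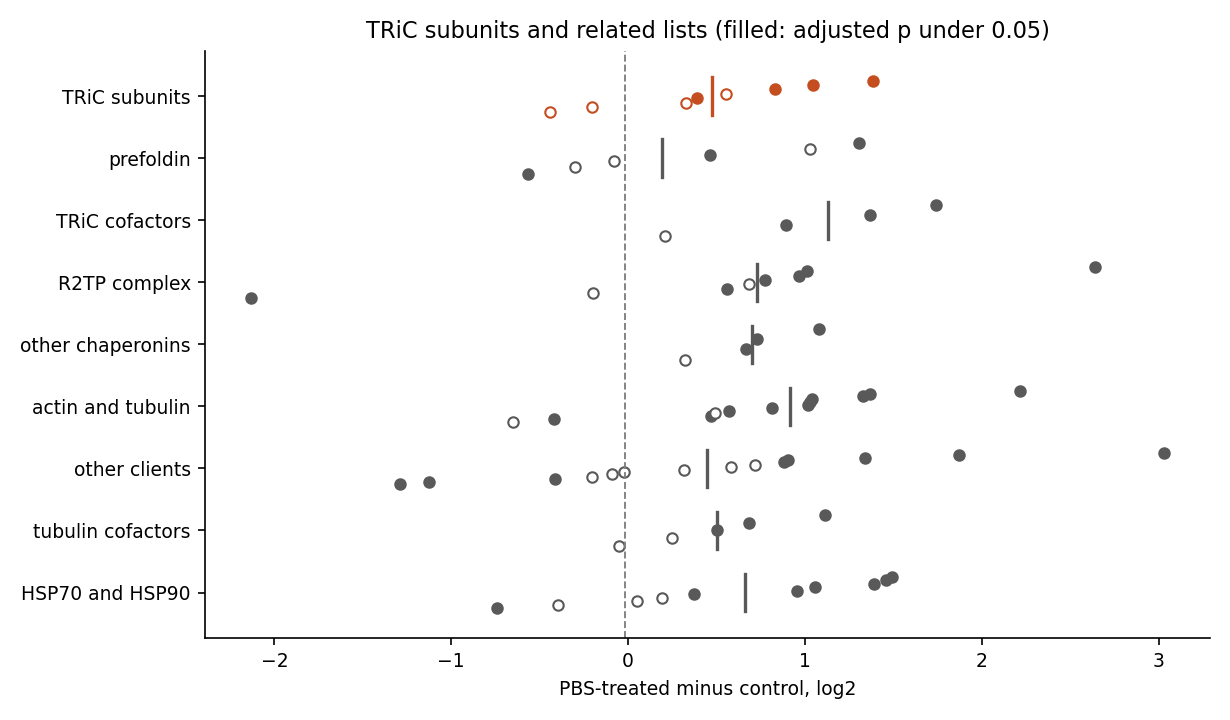
Difference of each tested gene, PBS-treated minus control on the log2 scale, for the 8 TRiC subunits and 8 related lists; filled points have adjusted p under 0.05, vertical strokes are list medians and the dashed line is the median of all genes, -0.02. The medians run from 0.19 for prefoldin to 1.13 for the TRiC cofactors, with 0.47 for the TRiC subunits.

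Markers of the labelled cell type were present: of 10 fibroblast genes 7 were well above background on each of the 9 arrays and Thy1 on none, and of 9 tested 2 were called higher and 3 lower. Their summed linear level, in units of the 75th percentile, was 12.2 to 14.4 in the PBS-treated group and 11.4 to 13.9 in the control group. Leukocyte markers summed to 0.88 to 1.79 in the PBS-treated group and 2.19 to 3.34 in the control group (2 of 4 tested called lower), and endothelial markers to 0.11 to 0.14 in the PBS-treated group and 0.24 to 0.42 in the control group (2 of 2 called lower). Epithelial markers summed to 0.01 to 0.08 in the PBS-treated group and 0.04 to 0.16 in the control group (0 of 1 called). Of the leukocyte markers on the array, 3 of 8 were above background on no array, as were 3 of 5 epithelial and 2 of 4 endothelial ones. The part of these markers in the subunit differences was not tested.

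Pairs of subunits varied together to unequal degrees. Over the 9 arrays Pearson's r between 2 subunits ran between -0.41 for Cct4 with Cct8 and 0.97 for Cct6a with Cct7, with a median of 0.72 over 28 pairs. These values rest on 2 groups and 2 slides and are a description. Of 9761 other genes, those whose values followed the mean standardized profile of the 8 subunits most closely were Ripk3 (r = 0.99, a kinase of necroptosis), Borcs6 (0.99, a subunit of the lysosome-positioning complex BORC), C9orf72 (0.98), Ldah (0.98, a lipid droplet hydrolase) and Rnf113a1 (0.98, a RING finger protein), each over 9 arrays. Of these, Borcs6 and C9orf72 were called higher, at 0.92 ± 0.30 and 1.49 ± 0.46 (adjusted p = 0.0292 and 0.023), each well above background on 2 control arrays, and the other 3 did not pass.

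Promoter windows of RefSeq (GRCm38.p6, 250 bases before the start of transcription to 50 after) were matched by symbol for 7 of the 8 genes, as 9 windows, and Cct4 was not matched. The GC box GGGCGG was found on either strand in 8 of the 9 windows and in all 7 genes, against 35.7% of 32851 windows. The CCAAT box was found in Tcp1, Cct3, Cct6a and Cct7 (37.4% of all windows). A pair of heat shock units, written GAANNTTC or TTCNNGAA, was found in Cct2, Cct5 and Cct6a (15.1% of all windows for either form), and TATAAA and the E box CACGTG in none (13.6% and 7.15% of all windows). The 120 bases before the start are shown for the 3 subunits that rose on both slides, with GC boxes and CCAAT boxes of either strand in capitals, as a description of letters only. They lie at chr5:129787236-129787355 (plus strand) for Cct6a, chr6:85451385-85451504 (plus strand) for Cct7 and chr16:87495870-87495989 (minus strand) for Cct8.
Cct6a: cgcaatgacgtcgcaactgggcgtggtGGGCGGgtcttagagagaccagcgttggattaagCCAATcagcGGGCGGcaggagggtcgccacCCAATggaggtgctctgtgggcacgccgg
Cct7: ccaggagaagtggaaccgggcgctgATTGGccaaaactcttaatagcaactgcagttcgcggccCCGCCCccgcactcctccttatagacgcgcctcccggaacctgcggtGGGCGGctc
Cct8: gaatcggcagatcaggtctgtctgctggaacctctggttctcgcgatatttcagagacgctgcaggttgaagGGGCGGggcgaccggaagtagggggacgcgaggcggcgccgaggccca
Cct6a holds 2 boxes of each kind in this stretch, Cct7 2 GC boxes and 1 CCAAT box, and Cct8 1 GC box and 0 CCAAT boxes.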

How the data were processed

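RNA of EVs from MEFs was measured on 9 one-colour Agilent arrays. The authors quantified the scans with Agilent Feature Extraction 10.7.3.1 and then used their in-house SLIMarray pipeline, with settings that were not given in the sources used here. Linear intensity per spot was deposited as scanner files (background-corrected signal, mean signal, local background), annotated on mm9. The deposited value table holds log2 values, which ranked probes as the mean signal did and had the same median on each array, 5.97. It was read as quantile normalized with no background subtracted, its centring is not stated, and it served as an alternative.

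Control and non-uniform spots (3 to 29 per array) were left out and spots of a probe averaged. Probes well above background on at least 4 arrays were tested with limma 3.58.1 in R 4.3.3 (lmFit and eBayes, two-sided) on all 9 arrays without covariates. Accessions of 26413 probes matched RefSeq symbols, which renamed 3093. A gene was represented by its brightest tested probe. Normexp used an offset of 50. The fit was run on simulated data with few changed probes, the same spread in both groups and no slide effect. The real arrays differ, with a median SD over all probes of 0.28 in the PBS-treated and 0.44 in the control group. The simulation therefore does not show how the fit behaves on them. Tables and figures used Python 3.11.15, pandas 2.3.3, numpy 2.4.6 and matplotlib 3.10.9.

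All 8 subunits are described, with up to 3 genes of smallest p among those called from each related list and the 5 other genes of highest correlation with the mean subunit profile. Further genes of the lists were named after their values were seen. They include Vbp1, Actg1, Hspa8 and Hspa4, for which another tested probe was called differently. The subunits and lists were chosen with earlier results of these data known. Alternatives changed the scaling, background correction, filter, probe rule, weights, slide, pairing, test and arrays used. The slide by group interaction and the slide block with the percentile of all probes were added after seeing the data.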

Additional observations from a re-analysis of the deposited data

Results flagged for a closer look

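The difference between PBS-treated and control arrays itself differed between the slides for 2 subunits, by the slide by group interaction of the limma fit. For Tcp1 the difference on slide 2 was 1.40 ± 0.30 above that on slide 1 (SE, adjusted p = 0.0318), and for Cct4 it was 1.0 ± 0.20 above (adjusted p = 0.0278). On each slide a group holds 2 or 3 arrays. No subunit had an array that stood apart within its group by Dixon's test in the 16 group series examined, a test that flags about 1 group in 20 by chance.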

How the results depend on the processing

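Cct7 and Cct8 were called higher under all 28 alternatives and Cct6a under all 27 that measured it; Cct2 kept its call under 16 of 28. Tcp1 turned to 0.20 with the percentile of all probes, 0.087 with that percentile and slide as a block, 0.53 on slide 2 alone and 1.04 with spike-in scaling, and Cct4 to 0.089 on slide 2 alone and 0.81 with spike-in scaling. Spike-in scaling called 8 subunits, 59 genes of the related lists and 11044 probes higher, and 1 list gene and 950 probes lower, against 4, 36, 5590, 7 and 3723 in the fit reported. Subunits called lower were 0 there, 2 with array weights, on slide 1 alone and without both control arrays of slide 2, and 1, Cct4, without control replicate 3. Probes called lower were 1707 with the percentile of all probes (1 list gene), 2351 with normexp and quantile (3 list genes), 2322 in the value table (3 list genes), 6586 with no filter (3 list genes), 5793 with array weights and 5996 with slide as a block. With normexp alone 2225 probes and 22 list genes were higher and 5999 probes lower. With probes above background on all 9 arrays 2735 were higher. The share of higher among called probes was 60.02% in the fit reported, 92.1% with spike-in scaling, 72.4% with the percentile of all probes and 27.1% with normexp. The spread of the 8 differences, 1.83, was 1.41 with normexp and 1.41 in the value table.

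Leaving out each array in turn left 3 to 5 subunits higher and 0 to 1 lower, 5029 to 5603 probes higher and 3246 to 3649 lower. Differences then ran from 1.14 to 1.56 for Cct6a, 0.99 to 1.11 for Cct8, 0.74 to 0.91 for Cct7 and 0.32 to 0.46 for Cct2. The methods' t-test called 4 subunits after Benjamini-Hochberg and 5 at its own threshold. Replicate numbers did not pair the arrays: same-numbered arrays deviated together with r = 0.69, 0.72, -0.52 and 0.72 for numbers 1 to 4, and number 3 lies on both slides. With the replicate block, 3 subunits were higher and 0 lower, with 5072 probes higher and 4196 lower, and Cct2 was at 0.38 (adjusted p = 0.0936). Signal not above background on some control arrays limits Cct6a, Mkks, Pdcl, Ccne1, Borcs6, C9orf72, Rnf113a1, Pdcl3 and Bbs12, and on all of them Pfdn4 and Uri1.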
